A study of Marchantia polymorpha with 9 samples.

Results

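Described here is a set of 108 genes, of 19287 in the count table, whose transcripts were at least 4-fold lower in OX thalli than in WT thalli and changed less in KO thalli, where most were moderately below WT. The members were chosen on these measurements. CPM, the counts of a gene per 1e6 counts of its library, were averaged over 3 libraries per genotype, and log2 ratios to WT were taken after adding 0.1 CPM. A member had a WT mean of at least 1 CPM, a log2 ratio of OX to WT of -2 or less and a ratio of KO to WT, also after adding 0.1 CPM, above 0.5 and below 1.5. All its OX libraries also lay below all its WT libraries. IDs of the Y chromosome and of scaffolds with under 3 gene IDs were left out.

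The plants were the liverwort Marchantia polymorpha, male, of the Cambridge strain, grown from gemmae on agar for 10 days at 22 °C with 16 h of light and 8 h of dark. RNA was extracted in bulk from fresh thallus tissue. The 3 genotypes, labelled OX, KO and WT, were compared with 3 libraries each, and the labels are read as overexpression, knockout and wild type. The labels name neither the gene, its promoter or allele, nor the line behind OX or KO. The design speaks of biological replicates of each line, so a difference between genotypes cannot be told apart from one between lines.

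The series title places the work in the MIXTA-MYB lineage of land plants. MIXTA, first known from snapdragon, is an R2R3-MYB transcription factor that shapes petal epidermal cells, and its relatives in flowering plants regulate the cuticle. The cuticle is the layer of cutin and waxes that covers the aerial surface and limits water loss. The thallus is the flat, haploid body of the liverwort, with air chambers and pores above, rhizoids below and gemma cups on its upper face. It holds scattered oil body cells, a cell type typical of liverworts.

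The files do not pair the gene IDs with names, and 0 of the 19287 IDs were found in the RefSeq name table. No function, sequence or position is therefore given for any gene, and neither the gene altered in OX and KO nor markers of the thallus were checked. Of 113 Y-chromosome IDs, 43 to 50 had counts in a library. Library totals ranged from 44802998 to 57696744 counts. Every count was even, so 1 read pair appears to count as 2. At this depth 3 pairs, the limit that a count of 0 allows, equal 0.104 to 0.134 CPM of a library. Such limits and the counting intervals below cover counting error only. WT replicate 2 was the shallowest library.

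The members fell to a small share of their WT level in OX and differed less from WT in KO. Summed over the 108 members, the level was 126, 149 and 123 CPM in the OX libraries, 777, 678 and 754 CPM in the KO libraries, and 1081, 1109 and 966 CPM in the WT libraries. The ranges of the 3 genotypes did not overlap, which the rule ensures for OX and WT. Its limits for KO also favour a gap between KO and OX. Median levels over the members were 0.2005 CPM in OX, 3.51 CPM in KO and 4.43 CPM in WT. In such bulk RNA, fewer cells of a type and less RNA per cell cannot be told apart. For a single member the OX mean was 0.220% to 24.5% of WT, with a median of 5.55%, computed from summed pairs.

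**Figure D1:**
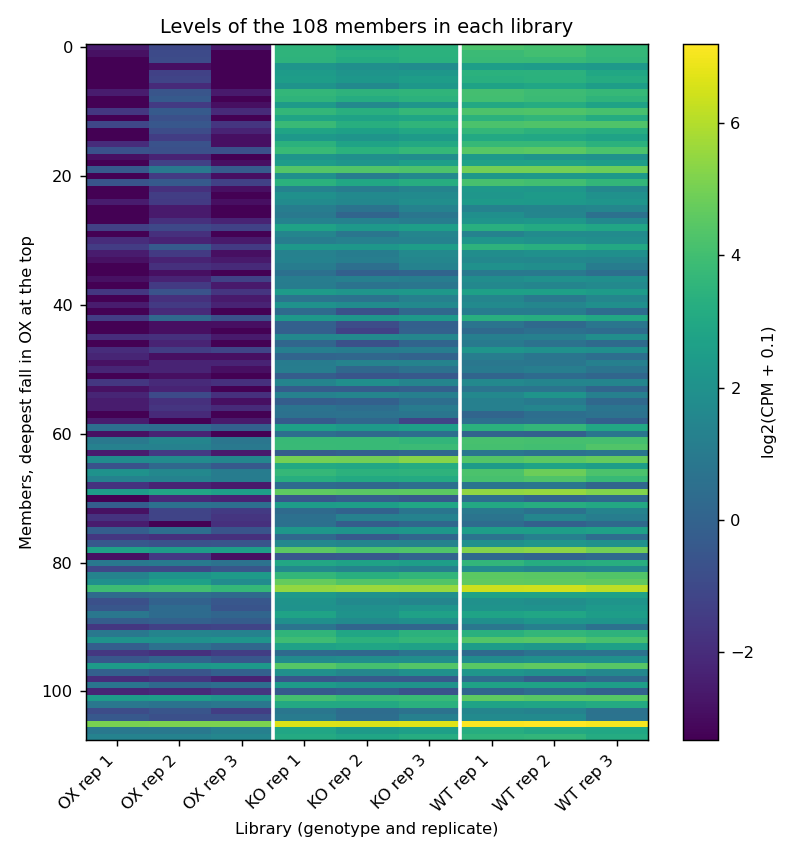
Each row is a member and each column a library, coloured by log2(CPM + 0.1), with the OX libraries on the left, then KO, then WT. The OX columns are darker throughout, and in the upper rows OX replicate 2 is lighter than OX replicates 1 and 3.

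All 108 members passed the low-count filter, and edgeR called all 108 lower in OX than in WT, where 14.3% of the 14813 genes tested were called lower. It also called all 108 lower in OX than in KO, against 19.1% of genes tested. Since the rule used these contrasts, the counts describe the choice. The median log2 ratio of OX to WT was -3.30 over the members and 0.06 over all genes tested. The WT mean of the members ran from 1.03 to 140 CPM, with a median of 4.43 CPM, against 26.6 CPM over the 12535 tested genes with at least 1 CPM in WT.

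The edges of the set were not marked by a gap. Just inside the limit for OX, Mapoly0132s0043 and Mapoly0057s0076 both had a log2 ratio of -2.03. Just outside, Mapoly0119s0050 and Mapoly0006s0130 lay just above -2, at 0.512 and 4.09 CPM in OX and 2.34 and 16.6 CPM in WT. A further 36 genes met all other conditions and had a log2 ratio of KO to WT of -1 or less, the nearest being Mapoly0079s0056 at -1.01. Only 5 met all others and lay above the upper limit for KO, the nearest being Mapoly0022s0193 at 0.81.

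**Figure D2:**
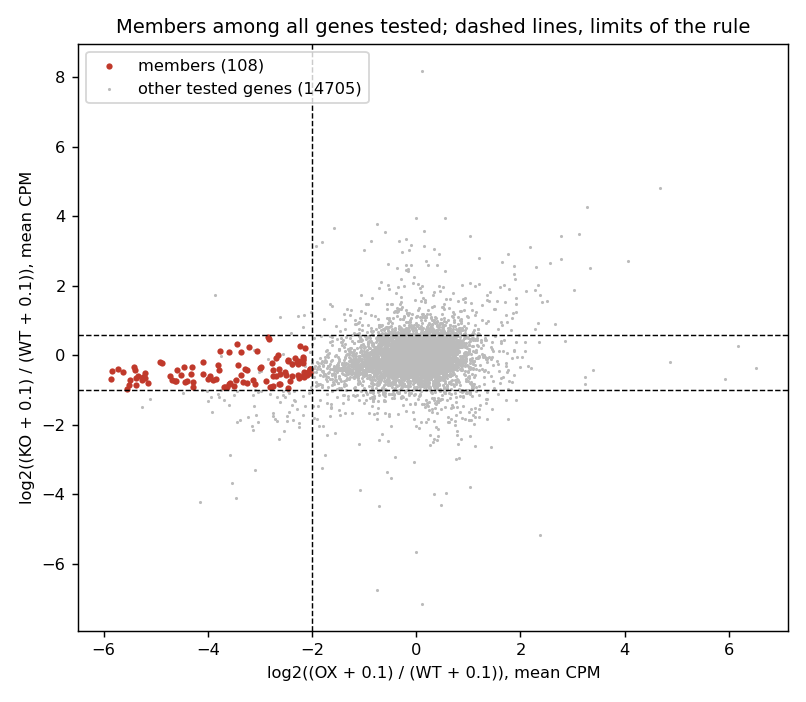
Each point is a gene tested, with the log2 ratio of mean CPM of OX to WT across and of KO to WT upwards, members in red and the limits of the rule dashed. The members continue the cloud of all genes to the left without a break, down to -5.87, and most lie below 0 on the KO axis.

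The most abundant members kept a sizeable level in OX. Mapoly0145s0015 had 33.4, 34.5 and 34.4 CPM in OX, 98.7, 96.6 and 101 CPM in KO, and 140, 146 and 134 CPM in WT. Its OX level was 24.5% of WT (95% exact counting interval 23.5% to 25.5%), and no genotype overlapped another. The next ID on the scaffold, Mapoly0145s0014, was the second most abundant member. It had 14.7 ± 1.75 CPM in OX, 47.2 ± 1.91 CPM in KO and 79.9 ± 8.16 CPM in WT (SD, n = 3 libraries each). Mapoly0041s0132 had 5.33, 7.35 and 5.95 CPM in OX, 23.7, 22.3 and 23.2 CPM in KO, and 44.0, 46.7 and 37.1 CPM in WT. In these 3 genes the KO libraries lay between those of OX and WT.

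Other abundant members differed in their KO level. Mapoly0024s0005 had 4.39 ± 1.56 CPM in OX, 22.3 ± 3.44 CPM in KO and 24.6 ± 0.327 CPM in WT, and its KO and WT libraries overlapped. Mapoly0044s0029 had 4.97 ± 0.404 CPM in OX, 19.6 ± 2.32 CPM in KO and 22.9 ± 1.40 CPM in WT. Mapoly0175s0023 fell furthest of the 8 most abundant members, to 0.676, 1.77 and 0.700 CPM in OX, against 31.0, 31.3 and 28.4 CPM in WT. Its KO libraries had 21.0, 20.1 and 19.1 CPM and did not overlap those of either other genotype.

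The depth of the fall varied widely within the set. In 34 members OX was lower by 16-fold or more, in 27 by 8- to 16-fold and in 47 by 4- to 8-fold. These bands had median WT levels of 8.24, 1.88 and 5.99 CPM. The added 0.1 CPM caps the fold that a gene with a low WT level can reach, so the band of 16-fold or more cannot hold the genes weakest in WT. In the 4- to 8-fold band the OX libraries held 18.3%, 19.9% and 17.9% of the summed WT level, a sum weighted to the abundant members. The medians over its members were 14.6%, 18.2% and 15.7% in OX replicates 1, 2 and 3. OX replicate 2 was the highest OX library in 26 of the 47.

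In the deepest falls the transcript was at or near the limit of detection. Among members with a WT mean of at least 5 CPM, the lowest log2 ratio after adding 0.1 CPM, -5.87, was that of Mapoly0135s0012, with 0.0751, 0.381 and 0.0700 CPM in OX, 11.2, 7.91 and 10.8 CPM in KO, and 18.4, 16.9 and 12.7 CPM in WT. Its OX level was 1.12% of WT (95% exact counting interval 0.626% to 1.86%). By that percent, which has nothing added, Mapoly0196s0014, Mapoly0196s0012 and Mapoly0274s0003 were lower, at 0.220%, 0.735% and 1.09% of WT. Mapoly0274s0003 had 0.0376, 0.416 and 0 CPM in OX, 11.2, 9.74 and 10.4 CPM in KO, and 14.1, 15.9 and 12.9 CPM in WT. Mapoly0118s0015 had 0.0751, 0.589 and 0.0700 CPM in OX, 12.3, 10.9 and 11.6 CPM in KO, and 16.3, 14.8 and 12.9 CPM in WT. In all 3 genes OX replicate 2 was the highest OX library.

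A total of 8 members had 3 pairs or fewer in the OX libraries together. Of these, 4 had 1 pair, which in each case came from OX replicate 2. Mapoly0196s0014 had 1 pair in OX, 330 in KO and 431 in WT, so that OX was 0.220% of WT (95% exact counting interval 0.00556% to 1.23%). No member lacked counts in every OX library.

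Among the strongest falls, the residual counts came mainly from OX replicate 2. In 17 members OX replicates 1 and 3 had no count and OX replicate 2 had some. Members without a count numbered 29 in OX replicate 1, 2 in OX replicate 2 and 21 in OX replicate 3, and 0 in every KO and WT library. Summed over the 34 members lower by 16-fold or more, the OX libraries held 1.12%, 3.97% and 0.976% of the WT level. In the order of the 3 OX libraries, replicate 2 was the highest in 76 of the 108 members (70.4%), against 35.4% of the 12427 other tested genes with at least 1 CPM in WT. OX replicate 2 was also the deepest library, at 57696744 counts, against 53250950 and 57153860 in OX replicates 1 and 3. The part that depth plays was not tested.

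The higher level of OX replicate 2 recurred from gene to gene. Of 22 members with a fall of 16-fold or more and a WT mean of at least 5 CPM, OX replicate 2 was the highest OX library in 21. Its level was 0.641% to 7.19% of the WT mean, with a median of 3.73%. The median was 0.131% in OX replicate 1 and 0.457% in OX replicate 3, and 11 and 8 of the 22 genes had no count there. Together the 22 genes had 87, 317 and 80 pairs in OX replicates 1, 2 and 3. The exception was Mapoly0070s0055, with 14 pairs in each OX library. Its CPM was highest in OX replicate 1 only because that OX library had the smallest total.

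Members of whose OX counts at least 80% came from 1 library numbered 13 among those with a WT mean of at least 5 CPM, and in all 13 that library was OX replicate 2. Mapoly0182s0023 had 0, 0.693 and 0 CPM in OX, 11.3, 8.95 and 10.8 CPM in KO, and 16.0, 14.2 and 11.5 CPM in WT. Its neighbour by number, Mapoly0182s0024, had 0, 0.485 and 0 CPM in OX, 6.87, 6.59 and 7.20 CPM in KO, and 10.7, 11.9 and 8.86 CPM in WT. Mapoly0185s0031 and Mapoly0185s0032, also next to each other, had 0.347 and 0.312 CPM in OX replicate 2 and no count in the other OX libraries. Mapoly0027s0139, Mapoly0037s0075 and Mapoly0095s0036 had 0.451, 0.277 and 0.312 CPM in OX replicate 2, no count in replicate 1 and 0.105, 0.0350 and 0.0350 CPM in replicate 3. These genes were chosen for holding most of their OX counts in 1 library, so its lead within each gene restates the choice. In each of them OX replicate 2 stayed far below the lowest KO library, and the rule set it below WT.

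**Figure D3:**
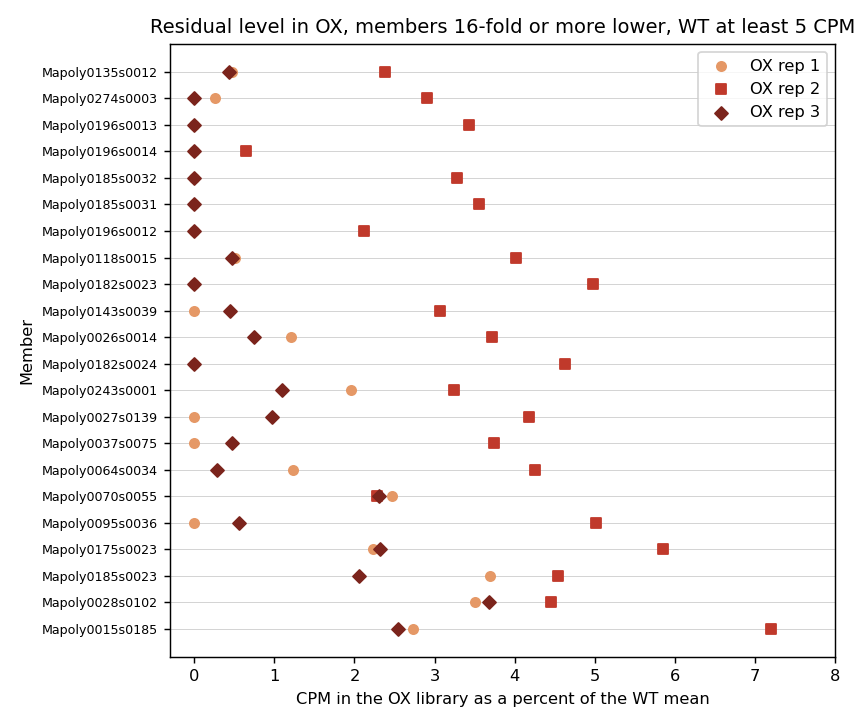
For each of the 22 members lower by 16-fold or more with a WT mean of at least 5 CPM, the points give the CPM of OX replicates 1, 2 and 3 as a percent of the WT mean; points at 0 lie on top of each other. The squares of OX replicate 2 lie between 0.641% and 7.19%, to the right of the other OX libraries in 21 of the 22 genes.

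Libraries of the other genotypes also differed among themselves in the same genes. KO replicate 2 was the lowest KO library in 77 members (71.3%), against 42.2% of the other tested genes with at least 1 CPM in WT. It was the lowest in 20 of the 22 genes plotted by OX library. WT replicate 3 was the lowest WT library in 68 members (63.0%), against 29.2% of the other genes. The median member lay 0.15 below its genotype mean on the log2 scale in KO replicate 2 (a value of -0.15) and at -0.13 in WT replicate 3, against -0.03 and 0.02 over the other genes. These shifts were small beside the distance to OX.

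In KO the members stayed within the limits set by the rule but were mostly below WT. The log2 ratio of KO to WT was below 0 in 97 members and above 0 in 11, with a median of -0.55, against -0.02 over all genes tested. The limits of the rule reach further down than up. In 66 members (where 19.2% of genes tested did so) all KO libraries lay below all WT libraries, in 3 (11.6% of genes tested) all lay above, and in 39 they overlapped. In edgeR's test of KO against WT, 21 members (19.4%) were called lower, against 7.64% of all genes tested. In the same test 1 member was called higher, against 6.51% of all genes tested. The rule used this contrast, so these counts are a description. They also moved with the test and the libraries used. Members called lower numbered 34 with DESeq2, 33 with halved counts and 36 in a fit blocked by replicate number, and those called higher 2 in each. Without KO replicate 2, 12 members were called lower, without WT replicate 2, 13 were, and without OX replicate 2, which enters only through the filter, the scaling and the shared estimate of spread, 34 were.

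The bands of OX fall overlapped in their KO ratios. In the 34 members lower by 16-fold or more in OX, the log2 ratio of KO to WT ran from -0.98 to -0.19 and was never above 0. In the 27 members of the 8- to 16-fold band it ran from -0.93 to 0.31 and was above 0 in 6. In the 47 members of the 4- to 8-fold band it ran from -0.95 to 0.53 and was above 0 in 5. The lowest KO ratios were those of Mapoly0185s0032 at -0.98 and Mapoly0223s0005 at -0.95. Mapoly0223s0005 had 2.48, 4.13 and 5.18 CPM in OX, 12.5, 9.71 and 11.9 CPM in KO, and 23.4, 22.9 and 20.05 CPM in WT.

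The highest KO ratios were those of a pair of genes on the same scaffold. Mapoly0118s0049 had 3.38, 3.29 and 2.76 CPM in OX, 31.6, 31.0 and 38.7 CPM in KO, and 20.9, 23.3 and 25.8 CPM in WT. It was the 1 member called higher in KO, with a log2 ratio of 0.53. Mapoly0118s0045 had 0.526, 1.07 and 0.665 CPM in OX, 8.33, 7.84 and 8.80 CPM in KO, and 5.38, 6.70 and 5.75 CPM in WT. In both genes every OX library lay below every WT library, and every KO library lay above them. Mapoly0118s0015, a member of the same scaffold with a distant number, had all KO libraries below all WT libraries by a small margin. Its highest KO library had 12.3 CPM and its lowest WT library 12.9 CPM. It was not called lower in KO (edgeR, adjusted p = 0.512).

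Some members lay side by side in the numbering of the IDs. The 108 members fell on 66 of the 260 scaffolds with at least 3 gene IDs, and 8 scaffolds held 3 or more of them, 31 members in all. The gene numbers are read here as the order along a scaffold, which no source used here states. A member was the next ID to another member in 32 cases (29.6%). Among the 2003 other genes called lower in OX, 620 (31.0%) were next to another of their own kind. Among all 692 genes called lower in OX by 2-fold or more, members included, 237 (34.2%) were. Both lists are far longer than the set, which alone makes neighbours more frequent, so the shares cannot be compared. Runs of 3 or more members with at most 1 other ID between neighbours numbered 5 and held 19 members. A further 10 runs held 2 members each, and 69 members stood alone. Neighbouring IDs can be near-identical copies or overlapping genes, between which the counting may have split or dropped reads.

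The longest runs had 5 members each. The run from Mapoly0196s0011 to Mapoly0196s0016 reached the lowest log2 ratio of the 5 runs, -5.73. Mapoly0196s0013 had 0, 0.451 and 0 CPM in OX, 10.9, 8.70 and 10.1 CPM in KO, and 13.9, 13.6 and 11.9 CPM in WT. Mapoly0196s0012 had 0, 0.139 and 0 CPM in OX, 4.15, 3.12 and 4.59 CPM in KO, and 6.57, 7.28 and 5.75 CPM in WT. Mapoly0196s0014 and Mapoly0196s0016 had 0.0347 CPM each in OX replicate 2 and no count in the other OX libraries, against WT means of 5.41 and 1.05 CPM. At the start of the run Mapoly0196s0011 fell less, to 0.789, 1.42 and 1.33 CPM in OX, against 8.10, 9.33 and 7.95 CPM in WT. The KO ratios within the run ranged from -0.71 to -0.40 and its OX ratios from -5.73 to -2.74. The rule limits KO ratios on both sides and OX ratios on only 1, so these widths cannot be compared. The added 0.1 CPM also limits the OX ratio of weak genes such as Mapoly0196s0016.

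The run from Mapoly0062s0122 to Mapoly0062s0126 kept more transcript in OX. Mapoly0062s0125 was its most abundant gene, with 6.31, 5.68 and 5.63 CPM in OX, 23.4, 18.6 and 19.8 CPM in KO, and 37.5, 41.4 and 30.7 CPM in WT. Mapoly0062s0122, Mapoly0062s0124 and Mapoly0062s0126 had 4.13 ± 0.231, 2.31 ± 0.244 and 1.11 ± 0.236 CPM in OX, against 20.04 ± 2.13, 16.7 ± 2.997 and 10.2 ± 2.23 CPM in WT (SD, n = 3 libraries each). Mapoly0062s0123 was the weakest of the run, with 0.141 ± 0.0664 CPM in OX and 2.18 ± 0.526 CPM in WT. All 5 genes were lower in KO than in WT on average, with log2 ratios of -0.93 to -0.43.

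The same scaffold held another run, from Mapoly0062s0055 to Mapoly0062s0057. These genes had 5.001 ± 0.617, 1.71 ± 0.236 and 1.28 ± 0.366 CPM in OX, against 22.7 ± 1.40, 10.2 ± 1.54 and 6.64 ± 0.820 CPM in WT. Their OX ratios on the log2 scale, -2.51 to -2.16, lay within a narrow band. The run on the scaffold of Mapoly0143s0038 was uneven. There Mapoly0143s0039 had 0, 0.243 and 0.035 CPM in OX, 5.26, 3.02 and 4.56 CPM in KO, and 8.10, 9.11 and 6.52 CPM in WT. Mapoly0143s0038 averaged 0.259 ± 0.101 CPM in OX, 2.11 ± 0.112 CPM in KO and 3.96 ± 0.354 CPM in WT (SD, n = 3 libraries each). Mapoly0143s0041 averaged 0.131 ± 0.0542 CPM in OX, 2.87 ± 0.118 CPM in KO and 2.69 ± 0.750 CPM in WT. The KO ratios were -0.88 and 0.09 in genes of the same run.

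The last run, from Mapoly0212s0010 to Mapoly0212s0013, joined unlike genes. Mapoly0212s0010 had 1 pair in OX, in replicate 2, and 1.06 ± 0.299 CPM in KO, against 1.64 ± 0.275 CPM in WT. Mapoly0212s0012 and Mapoly0212s0013 kept 1.09 ± 0.318 and 1.63 ± 0.0923 CPM in OX, and had 6.58 ± 0.455 and 8.72 ± 1.25 CPM in KO, against 5.47 ± 0.697 and 7.48 ± 0.926 CPM in WT. In pairs of members, similar ratios also stood side by side. Mapoly0182s0023 and Mapoly0182s0024 had OX ratios of -5.40 and -5.34 on the log2 scale, and Mapoly0185s0031 and Mapoly0185s0032 had -5.51 and -5.56. Across the 10 pairs the OX ratios of the 2 genes differed by 0.05 to 1.75.

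**Figure D4:**
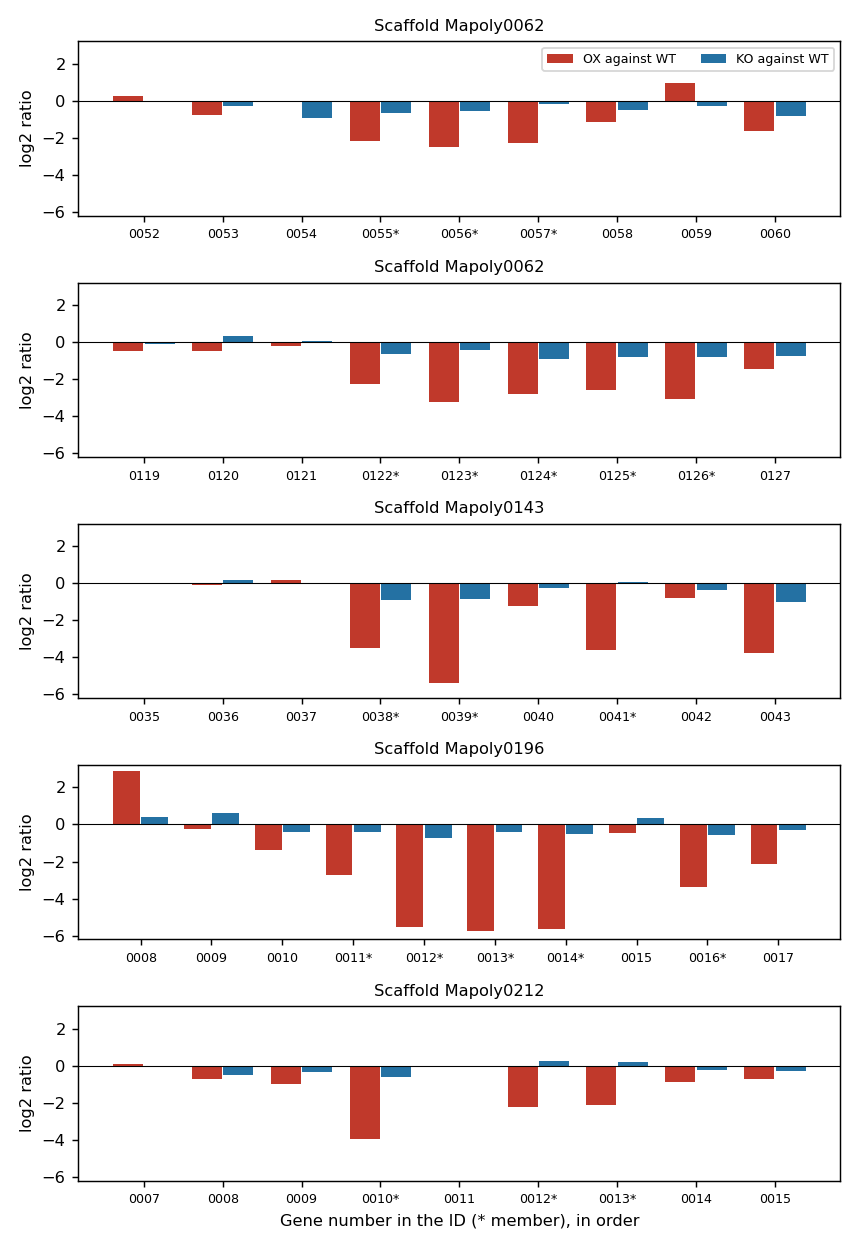
Each panel follows the gene numbers through a run of members (asterisks) and up to 3 IDs on either side, with the log2 ratio of mean CPM of OX to WT in red and of KO to WT in blue. The red bars reach -5.73 in the run of scaffold Mapoly0196 and -3.24 in the run of 5 on scaffold Mapoly0062, and the blue bars of members stay between -0.93 and 0.26.

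Genes next to members, which the rule had not chosen, were also often lower in OX. Members had 166 neighbouring IDs that were not members, and 110 of these passed the low-count filter. Of the 110, edgeR called 47 (42.7%) lower in OX than in WT at an adjusted p under 0.05, against 14.3% of all genes tested, and 9 (8.18%) higher, against 10.5%. At 2-fold or more, 28 (25.5%) were lower, against 4.67% of all genes tested. With only genes of at least 1 CPM in WT, 37 of 84 neighbours (44.0%) were lower, against 15.4% of all such genes tested. Of the 47, 40 had a log2 ratio of OX to WT above -2, 10 had a WT mean under 1 CPM and 8 lay outside the KO limits. A gene could miss on more than 1 condition. The added 0.1 CPM shrinks the ratio of weak genes. Mapoly0243s0002, at 0.360 CPM in WT, had a ratio of -1.90 but a log2 fold change of -3.86 in edgeR.

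The share of lower genes declined with distance along the scaffold. It was 26.8% of 112 tested genes at the second ID from the nearest member, 19.8% of 106 at the third and 22.3% of 103 at the fourth. At the fifth it was 13.0% of 100, and from the sixth to the tenth it ranged from 8.79% to 18.2%. The median WT level of these tested genes also differed with distance. It was 9.97 to 15.3 CPM from the first to the fifth ID and 16.9 to 30.0 CPM from the sixth to the tenth. The part that level plays in the decline was not tested. The share of genes called higher in OX ranged from 3.64% to 16.0% over all 10 distances. In KO against WT, 16 of the 110 nearest neighbours (14.5%) were called lower, against 7.64% of all genes tested, and 8 (7.27%) higher, against 6.51%.

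**Figure D5:**
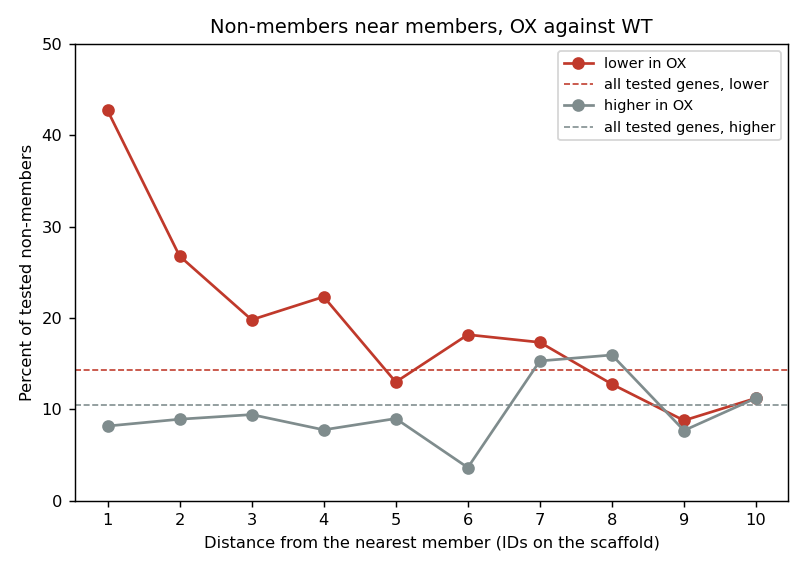
For non-members at 1 to 10 IDs from the nearest member, the points give the percent of tested genes called lower (red) and higher (grey) in OX than in WT, and the dashed lines the same percent over all genes tested, 14.3% and 10.5%. The red points start at 42.7% and reach the dashed line by the fifth ID, at 13.0%.

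Examples of such neighbours, chosen after their values were seen, differed in size and direction. Mapoly0196s0010, before the run on its scaffold, had 7.60 CPM in OX, 15.0 CPM in KO and 20.1 CPM in WT, a log2 fold change of -1.45 ± 0.09 (SE, edgeR) with an adjusted p of 2.48e-06. Mapoly0062s0127, after the run of 5 on its scaffold, had 4.25 CPM in OX, 7.01 CPM in KO and 11.8 CPM in WT (-1.52 ± 0.22, adjusted p = 0.000619). Mapoly0143s0040 stood between members and had 16.8 CPM in OX, 33.4 CPM in KO and 39.5 CPM in WT (-1.29 ± 0.11, adjusted p = 2.19e-05). Mapoly0118s0048, next to the member that was higher in KO, had 0.120 CPM in OX, 2.81 CPM in KO and 1.24 CPM in WT. It was lower in OX (-3.40 ± 0.27, adjusted p = 1.06e-05) and higher in KO (1.20, adjusted p = 0.00225), the same directions as Mapoly0118s0049, and its KO ratio lay above the limit of the rule. Not every neighbour followed: Mapoly0084s0009, next to the member Mapoly0084s0010, had 55.5 CPM in OX, 11.5 CPM in KO and 26.4 CPM in WT, and was called higher in OX (log2 fold change 1.02 ± 0.07, adjusted p = 3.16e-06).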

How the data were processed

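Counts of reads per gene from RNA sequencing of 9 thallus samples, as deposited by the authors with no normalization, were analysed. Per the submitters' processing notes the tools were STAR 2.5.1b and featureCounts 1.5. Settings, strand handling and genome build were not given in the sources used here. The row names carry the suffix of gene models v3.1. Columns were matched to samples by library name (0 columns of other samples).

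The members and lists were chosen with earlier results of these data known. Members were found from CPM by column total. edgeR 4.0.16 in R 4.3.3 (quasi-likelihood F test, TMM factors 0.958 to 1.04, filterByExpr) was fitted to all 9 libraries with 1 mean per genotype, with Benjamini-Hochberg adjustment across the 14813 genes tested and a threshold of 0.05. The script was tested on simulated data. Standard errors came from the F statistics. Counting intervals are exact Clopper-Pearson intervals on pairs, counts divided by 2. Nothing but the labels says that libraries are separate cultures, and p-values cover the spread between these libraries only. Chi-square tests of replicate counts gave 6.25 to 17.0 per degree of freedom, so no libraries were treated as duplicates.

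Members were named by rule: the 8 most abundant in WT, the 8 lowest log2 ratios of OX to WT with at least 5 CPM in WT, all in runs of 3 or more, those nearest to the limits, and those with at least 80% of their OX counts in 1 library. Other scalings, filters, DESeq2 1.42.0, halved counts, a replicate block and leaving out each library were tried. No gene list by function could be applied.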

Additional observations from a re-analysis of the deposited data

How the results depend on the processing

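Of the 104 recomputed counts, 88 stayed within 1.5 times the reported count. All 600 recomputed fold changes of OX against WT in the 40 named members had the same sign and passed the threshold. The set had 117 members with TMM-scaled libraries, 108 of them shared, 50 with a pseudocount of 1, which shrinks the ratios of weak genes, 61 with a limit of -3 for OX, and 102 to 113 without 1 library. All 108 were called lower in OX against WT and against KO in every fit, with 108 to 108 without 1 library. The rule chose members by these contrasts in the same libraries. These counts, which are among the 88, and the 600 fold changes therefore restate the choice and are no separate check. For KO against WT, the members called lower numbered 34 with DESeq2 and 33 with halved counts, and those called higher 2 and 2. Without 1 library they numbered 12 to 34 and 1 to 2. The cause was not tested. The labels do not say whether equal replicate numbers mark anything shared between libraries. Deviations of libraries with equal numbers from their genotype means correlated above 0.1 in 6 of 9 pairs (0.0096 to 0.241). For unequal numbers the correlations ran from -0.259 to 0.023. With the replicate number as a block, 36 and 2 members were called lower and higher in KO, and 49 neighbours lower in OX. Neighbours called lower in OX numbered 40 to 47 without 1 library. Without scaffolds holding 3 or more members, a setting chosen after seeing the data, they numbered 37 of 87 (42.5%). Of the non-members within 5 IDs of a member, 134 of 531 (25.2%) were called lower. The share of the nearest neighbours was 31.6% to 45% over the other fits, against 10.9% to 19.1% of all genes. Members next to a member numbered 26 to 34 without 1 library. OX replicate 2 was highest in 48 of the 73 members with at least 20 counts in OX. With a limit of 10 pairs in place of 3, 40 members were at or under it in OX.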
